A study of Mus musculus with 6 samples.

Results

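The genes described here are 33 components of the machinery by which cells sense amino acids, listed by symbol. All 33 symbols were found among the 24391 genes of the deposited count table. They comprise the mTOR complexes, the TSC complex with Rheb, the Rag GTPases with folliculin, GATOR1 and GATOR2, the sestrins and REDD proteins, the kinase GCN2 with its partner, and 4 effectors. The study asked how D-serine in the medium affects gene expression in Neuro2a, an established line of mouse neuroblastoma cells, and read poly(A) RNA by sequencing. D-serine, the enantiomer of the protein amino acid L-serine, binds the glycine site of NMDA receptors. Cultures had been grown in D-MEM with 10% fetal bovine serum. All 6 were then moved to a medium written as D-MEM(-SG), an abbreviation the labels do not spell out, again with serum. In this medium 3 received vehicle (control) and 3 received 5 mM D-serine for 18 h. The labels do not say that the 3 libraries of a group came from separate cultures, so p-values measure the spread between these libraries, which may be technical.

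mTORC1 is a protein kinase complex on the lysosome that promotes translation and restrains autophagy when amino acids and growth factors are plentiful. Amino acids act through the Rag GTPases, which GATOR1 switches off and GATOR2 relieves, and growth factors act through the TSC complex, which switches off the GTPase Rheb. GCN2 works in the opposite situation: uncharged tRNA activates it, it phosphorylates the translation factor eIF2, and translation of the transcription factor ATF4 rises. Most of this regulation is exerted on proteins, through phosphorylation, nucleotide loading and location, none of which is measured by transcript counts.

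Total counts lay between 32518483 and 40024265 per library, and 13366 genes were expressed highly enough to be tested. Of 15 sympathoadrenal genes that mark neuroblastoma cells, 12 exceeded 1 CPM (counts scaled by library size) in every library, while Nefl and Nefm had at most 10 counts in each. Their summed level was 1766 to 1860 CPM in control and 1872 to 2000 CPM with D-serine. Fibroblast, glial, and blood and endothelial markers each summed to at most 6.90 CPM. In such bulk samples, fewer cells of a type and less RNA per cell cannot be told apart. D-serine replicate 1 stood apart from its fellows: its counts gave 17.7 and 13.9 chi-square units per degree of freedom against the other D-serine libraries, which gave 4.07 against each other, while control pairs gave 3.88 to 6.54. Log2 fold changes of members and listed genes, and list medians, that leaving it out moved by over 1.5 times are given both ways.

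Nprl3, which encodes a subunit of the GATOR1 complex, rose with D-serine, while Tsc2, the GTPase-activating subunit of the TSC complex, and Gcn1l1, the ribosome-binding partner of GCN2, fell. These were the 3 of 32 tested members (9.38%) with an adjusted p under 0.05 in edgeR's quasi-likelihood test. Over all tested genes the share was 9.74%, 4.84% higher and 4.9% lower, so the number of members that changed was close to the background and is not a result about the module. Of the members, 14 had D-serine libraries that lay wholly above (5) or wholly below (9) the controls, against 32.9% of all tested genes (16.2% above and 16.6% below). The log2 fold change was below 0 in 21 and above 0 in 11, against 48.5% of all genes below 0 and 51.5% above. Its median was -0.08 in the members and 0.01 in all tested genes. An unadjusted p under 0.05 was found for 17 members and for 28.2% of all genes. The changes were all small, from -0.23 to 0.30 on the log2 scale. The member that was not tested, Ddit4l, a relative of the mTORC1 inhibitor REDD1, had a count of 0 in every library.

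**Figure D1:**
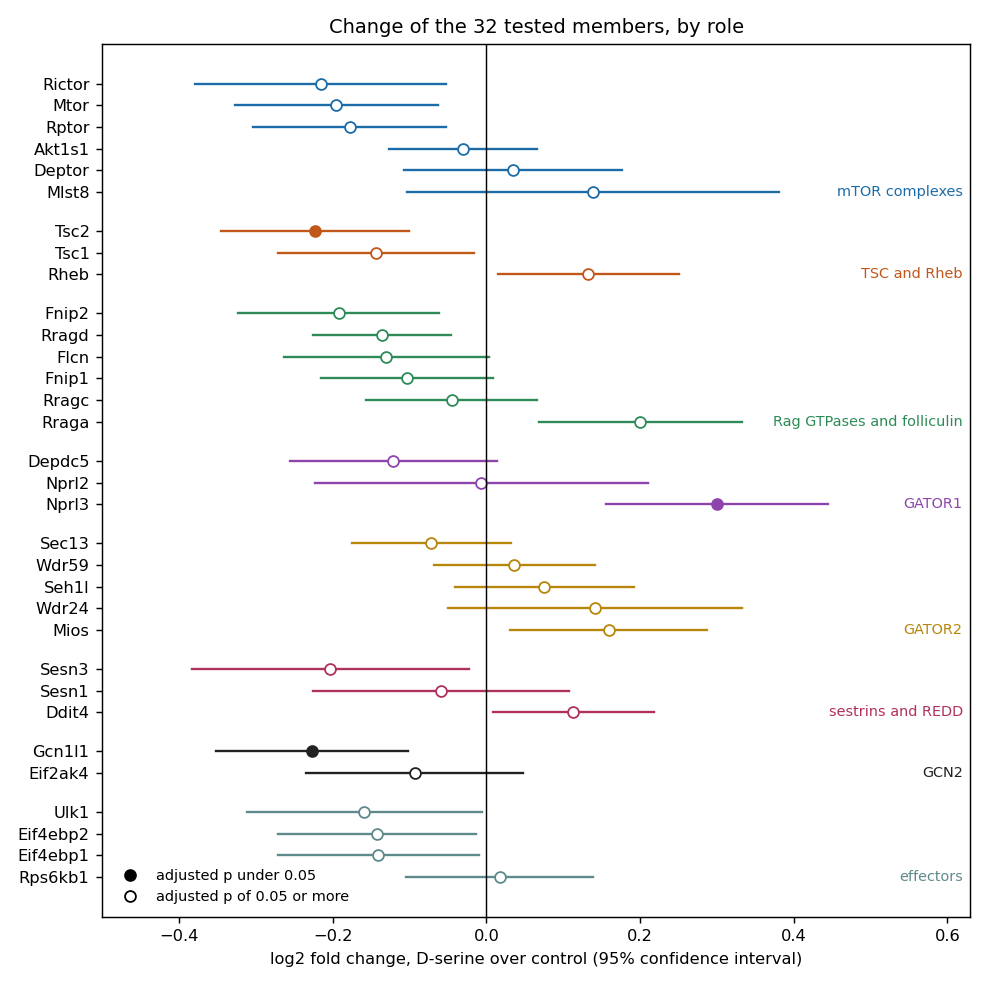
Log2 fold change, D-serine over control, of the 32 tested members, grouped by role, with 95% confidence intervals from 3 libraries per group; filled points have an adjusted p under 0.05 in edgeR's quasi-likelihood test. Nprl3 at 0.30 lies farthest to the right, and Tsc2 at -0.22 and Gcn1l1 at -0.23 are the filled points on the left.

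The number of members called depended on single libraries. Without control replicate 1 or control replicate 2 no member passed, without control replicate 3 Nprl3 alone did, and without D-serine replicate 3 Gcn1l1 alone did. With D-serine replicate 1 or 2 left out, 6 and 8 passed. The count over all genes moved in the same settings, from 1302 to 125, 68, 453, 291, 1699 and 1566, so that shares of all genes called were 0.921%, 0.501%, 3.34%, 2.15%, 12.5% and 11.6%.

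Gene length accompanied the direction of change. Across all tested genes, Spearman's rho between the log2 fold change and the summed exon length was -0.29, and over the 32 members it was -0.45, given as a description since the points share libraries. The slope of each library's deviation on log2 length was 0.04, 0.02 and 0.02 in the controls, in numerical order, and -0.07, 0.01 and -0.004 in the D-serine libraries, so the groups did not overlap and D-serine replicate 1 was the most distant. Without that library rho was -0.15 over all genes and -0.24 over the members. Of the 15 members longer than 5000 bases, 12 had a log2 fold change below 0, against 71.6% of all genes of that length. Of the 17 shorter members 9 did, against 43.3%. With each library's length trend removed and the trend centred, so that the TMM scaling is kept, rho over the members was 0.07 and their median was -0.05. The sign counts did not move: 21 members were still below 0 and 11 above, against 48.8% of all genes below 0. Of the 15 long members 12 were still below 0, with Depdc5 among them at -5e-04. The median of the long members was -0.08 in place of -0.14, against 0.0035 in all genes of that length. The members with an adjusted p under 0.05 were then Nprl3 and Deptor (higher) and Gcn1l1, Eif4ebp1, Eif4ebp2 and Sec13 (lower), and 15.3% of all genes passed.

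**Figure D2:**
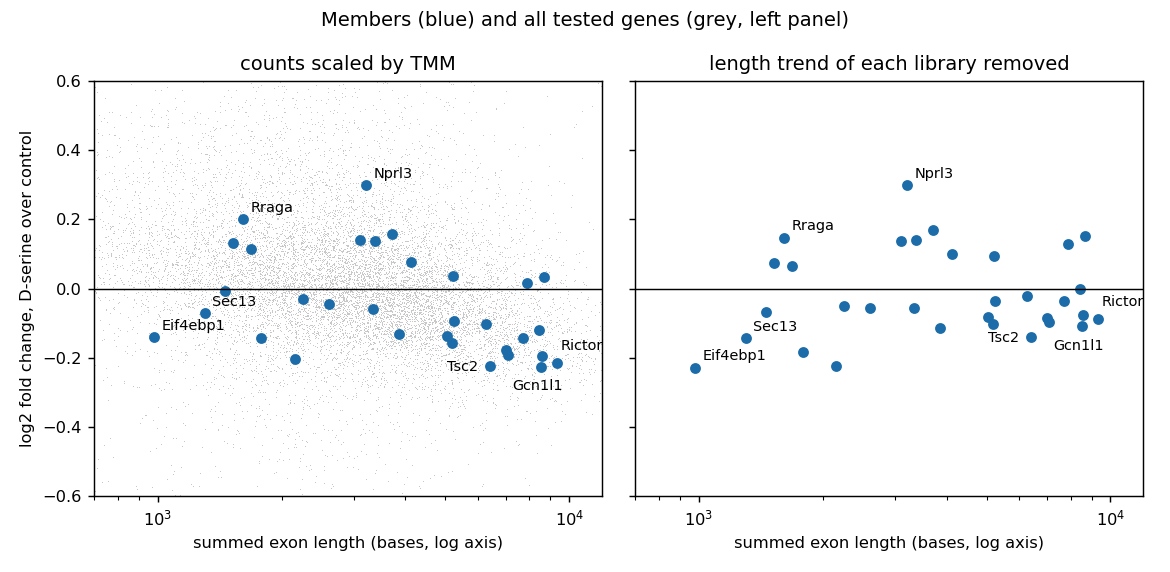
Log2 fold change against summed exon length (log axis) for the 32 tested members (blue), with TMM scaling alone (left, all tested genes in grey) and with the centred length trend of each library removed (right). Grey points outside the plotted range are not drawn. On the left the long members lie mostly below 0, with 12 of 15 over 5000 bases there in either panel, nearer to 0 on the right, where the members' rho with length is 0.07.

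mTOR itself and its partners formed the first group. Mtor encodes the kinase shared by both complexes. Its level was 129, 121 and 121 CPM in the control libraries and 96.6, 114 and 113 CPM with D-serine, so the D-serine libraries all lay below the controls and D-serine replicate 1 was lowest. The log2 fold change was -0.20 ± 0.06 (SE, n = 3 per group; edgeR adjusted p = 0.0607), and -0.12 (adjusted p = 0.0641) without D-serine replicate 1. Rptor, which encodes the substrate-recruiting subunit of mTORC1, behaved alike in that no libraries overlapped, with 110, 108 and 105 CPM in control and 86.3, 101 and 97.5 CPM with D-serine. Its log2 fold change was -0.18 (edgeR adjusted p = 0.0693), and -0.11 (0.0934) without D-serine replicate 1. Rictor, the defining subunit of mTORC2, had the most negative value of the group, -0.22, with overlapping libraries (edgeR adjusted p = 0.0858), and -0.12 (0.0892) without D-serine replicate 1. With the length trend removed these 3 values were -0.08, -0.08 and -0.09. The most positive was that of Mlst8, a shared subunit, at 0.14 with a 95% confidence interval from -0.10 to 0.38. It shared 997 bases of exon, 29.6% of its length, with Bricd5 on the opposite strand. Akt1s1 and Deptor, which encode inhibitors of mTORC1, had intervals from -0.13 to 0.07 and from -0.11 to 0.18. With D-serine replicate 1 left out, the values of Mlst8, Akt1s1 and Deptor were 0.08, -0.06 and 0.11 in place of 0.14, -0.03 and 0.03. None of the 6 had an adjusted p under 0.05, and 3 had an unadjusted p under 0.05. DESeq2 and the fit without a filter on low counts called Mtor, Rptor and Rictor lower, and limma-voom called none of the 6.

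**Figure D3:**
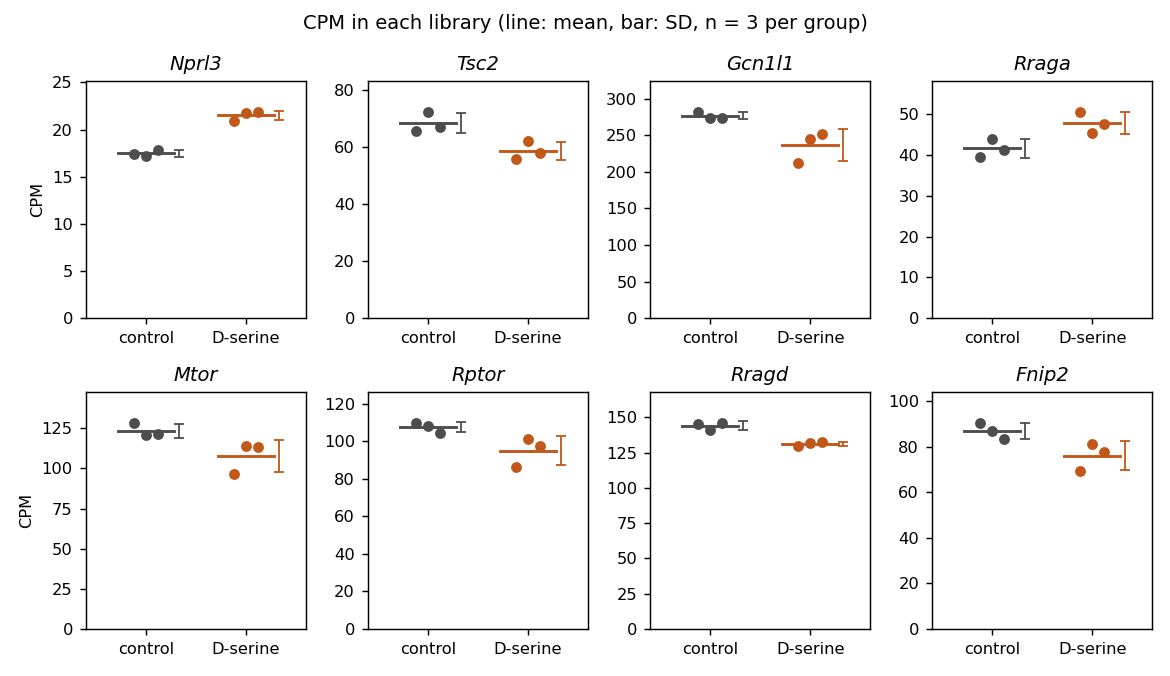
CPM in each of the 3 control and 3 D-serine libraries for 8 members, chosen after their values were seen, with the mean as a line and the SD as a bar. Control and D-serine points are fully separated in all 8, and D-serine replicate 1 (leftmost point) is the lowest library for Mtor, Rptor, Fnip2, Tsc2, Gcn1l1 and Rragd.

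In the TSC and Rheb group, Tsc2 was the member that passed. Its level was 65.9, 72.4 and 67.2 CPM in control and 56.0, 62.1 and 58.0 CPM with D-serine, and every D-serine library lay below every control. It fell by 14.3%, a log2 fold change of -0.22 ± 0.06 (SE; 95% confidence interval -0.35 to -0.10; edgeR adjusted p = 0.0299). The adjusted p was 0.0254 without D-serine replicate 1, and 0.0689, 0.144, 0.0663 and 0.0946 without control replicates 1, 2 and 3 and D-serine replicate 3. With the length trend removed the log2 fold change was -0.14 with an adjusted p of 0.0619 when the trend was centred, and -0.17 with 0.0300 when it was not. Tsc1, which stabilises Tsc2, had a value of -0.14 (edgeR adjusted p = 0.134) without overlap. That value was -0.09 (0.276) with D-serine replicate 1 left out and -0.04 with the centred length trend removed. Rheb, the GTPase that the TSC complex switches off, was at 143, 160 and 157 CPM in control and 178, 159 and 168 CPM with D-serine, which overlap, for 0.13 (edgeR adjusted p = 0.133). Tsc2 lies on chromosome 17, bases 24732761 to 24769572 on the minus strand, in coordinates as deposited, from a build the table does not name. It shared 699 bases of exon, 10.9% of its length, with Pkd1 on the other strand, whose log2 fold change was -0.18 (edgeR adjusted p = 0.205). The strand setting of the counting is not stated, so reads of overlapping opposite genes may not have been told apart.

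Of the Rag GTPases and folliculin proteins, 5 of 6 had a log2 fold change below 0 and none had an adjusted p under 0.05. Rraga, the partner that binds GTP when amino acids are present, was the exception in sign. Its level was 39.5, 43.9 and 41.3 CPM in control and 50.5, 45.3 and 47.6 CPM with D-serine, all above the controls, and D-serine replicate 1 was highest. The log2 fold change was 0.20 ± 0.06 (SE; edgeR adjusted p = 0.0551). Rraga passed in 6 of 19 alternatives, among them DESeq2 (0.0442), upper quartile scaling (0.0383) and library totals (0.0351). It did not pass with limma-voom or in any form of the length trend. Its value was 0.15 (edgeR adjusted p = 0.0657) with the centred length trend removed and 0.16 (0.0892) without D-serine replicate 1. Rragd, one of the alternative partners of Rraga, had 146, 141 and 146 CPM in control and 130, 132 and 132 CPM with D-serine, for -0.14 (edgeR adjusted p = 0.0564). Without D-serine replicate 1 its adjusted p was 0.0359. Fnip2, a partner of folliculin, had the most negative value of the group, -0.19 (edgeR adjusted p = 0.0623), and its libraries did not overlap: 90.5, 86.9 and 83.3 CPM in control and 69.2, 81.2 and 77.7 CPM with D-serine. Rragc, Flcn and Fnip1 had values of -0.05, -0.13 and -0.10, and Rragc had -0.08 with D-serine replicate 1 left out. With the centred length trend removed Rragd, Fnip2 and Fnip1 had -0.08, -0.10 and -0.02.

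GATOR1 is the inhibitor of the Rag GTPases, built from Nprl2, Nprl3 and Depdc5. Nprl3 was the member with the largest change of all. Its level was 17.4, 17.2 and 17.9 CPM in control and 20.96, 21.7 and 21.9 CPM with D-serine, with the lowest D-serine library above the highest control. It rose by 23.1%, a log2 fold change of 0.30 ± 0.07 (SE; 95% confidence interval 0.16 to 0.45; edgeR adjusted p = 0.0190). The adjusted p was 0.00969 without D-serine replicate 1 and 0.00689 with the centred length trend removed, and 0.0715, 0.0865 and 0.0712 without control replicate 1, control replicate 2 and D-serine replicate 3. Depdc5 and Nprl2 had values of -0.12 (edgeR adjusted p = 0.222) and -0.01 (0.978), and Nprl2 had 0.02 with D-serine replicate 1 left out. With the centred length trend removed Depdc5 and Nprl2 had -5e-04 and -0.07. Nprl3 lies on chromosome 11, bases 32131963 to 32167707 on the minus strand as deposited. It shared 740 bases of exon, 23.1% of its length, with Mpg on the opposite strand. Mpg had a log2 fold change of 0.20 (edgeR adjusted p = 0.169), in the same direction.

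GATOR2, which relieves GATOR1, had 4 of 5 members above 0 and none with an adjusted p under 0.05. Mios had the largest value, 0.16 (edgeR adjusted p = 0.102), and its libraries did not overlap, with 33.7, 31.8 and 35.4 CPM in control and 38.3, 37.4 and 37.0 CPM with D-serine. Wdr24, Seh1l and Wdr59 had values of 0.14, 0.08 and 0.04. Sec13, which also belongs to the nuclear pore and to the COPII coat of secretory vesicles, had -0.07 (edgeR adjusted p = 0.353), and -0.12 (0.0434) with D-serine replicate 1 left out. With the centred length trend removed the value for Sec13 was -0.14, with an adjusted p of 0.00549.

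The sestrins and REDD proteins are stress-induced inhibitors of mTORC1. Sesn3 had -0.20 (edgeR adjusted p = 0.132), with 21.4, 22.0 and 23.5 CPM in control and 17.0, 20.5 and 20.6 CPM with D-serine, and no overlap. Without D-serine replicate 1 its value was -0.12 (adjusted p = 0.338). Ddit4, which encodes REDD1 and is also a target of ATF4, had 0.11 (edgeR adjusted p = 0.149), and Sesn1 had -0.06, or -0.10 with D-serine replicate 1 left out. No member of this group had an adjusted p under 0.05.

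GCN2 is encoded by Eif2ak4 and is activated at the ribosome with the help of Gcn1l1. Gcn1l1 was at 282, 274 and 273 CPM in control and 212, 245 and 252 CPM with D-serine, all below the controls, and D-serine replicate 1 was lowest. It fell by 14.6%, a log2 fold change of -0.23 ± 0.06 (SE; 95% confidence interval -0.35 to -0.10; edgeR adjusted p = 0.0300). Without D-serine replicate 1 the log2 fold change was -0.15 with an adjusted p of 0.00700. With the centred length trend removed it was -0.11 (0.0268). Without control replicates 1, 2 and 3 the adjusted p was 0.108, 0.101 and 0.0720. With the length trend removed and D-serine replicate 1 also left out, the value was -0.10 with an adjusted p of 0.0509. Eif2ak4 had -0.09, with a 95% confidence interval from -0.23 to 0.05, and -0.04 with D-serine replicate 1 left out. Gcn1l1 lies on chromosome 5, bases 116015272 to 116072663 on the plus strand as deposited.

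The 4 effectors are the translation repressors Eif4ebp1 and Eif4ebp2, the S6 kinase Rps6kb1 and the autophagy kinase Ulk1. The values were -0.14, -0.14, 0.02 and -0.16, and 3 of the 4 had an unadjusted p under 0.05, with edgeR adjusted p of 0.149, 0.138, 0.878 and 0.163. The libraries of the groups overlapped for all 4. Eif4ebp1, also a target of ATF4, had -0.21 (edgeR adjusted p = 0.00391) without D-serine replicate 1 and -0.23 (7.92e-04) with the centred length trend removed. Eif4ebp2, Rps6kb1 and Ulk1 had -0.09, 0.04 and -0.10 with D-serine replicate 1 left out.

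Levels of different members were compared per kilobase of exon. In control the highest was Eif4ebp1 at 320 ± 21 CPM per kb (SD, n = 3), followed by Ddit4 at 266 ± 13, Sec13 at 164 ± 3.8 and Rheb at 101 ± 5.9, whose ranges did not overlap. The lowest was Mlst8 at 1.79 ± 0.069, and next above it were Wdr24 at 4.56 ± 0.36, Depdc5 at 4.85 ± 0.34 and Nprl2 at 5.29 ± 0.28, and the control libraries of these neighbours overlapped.

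**Figure D4:**
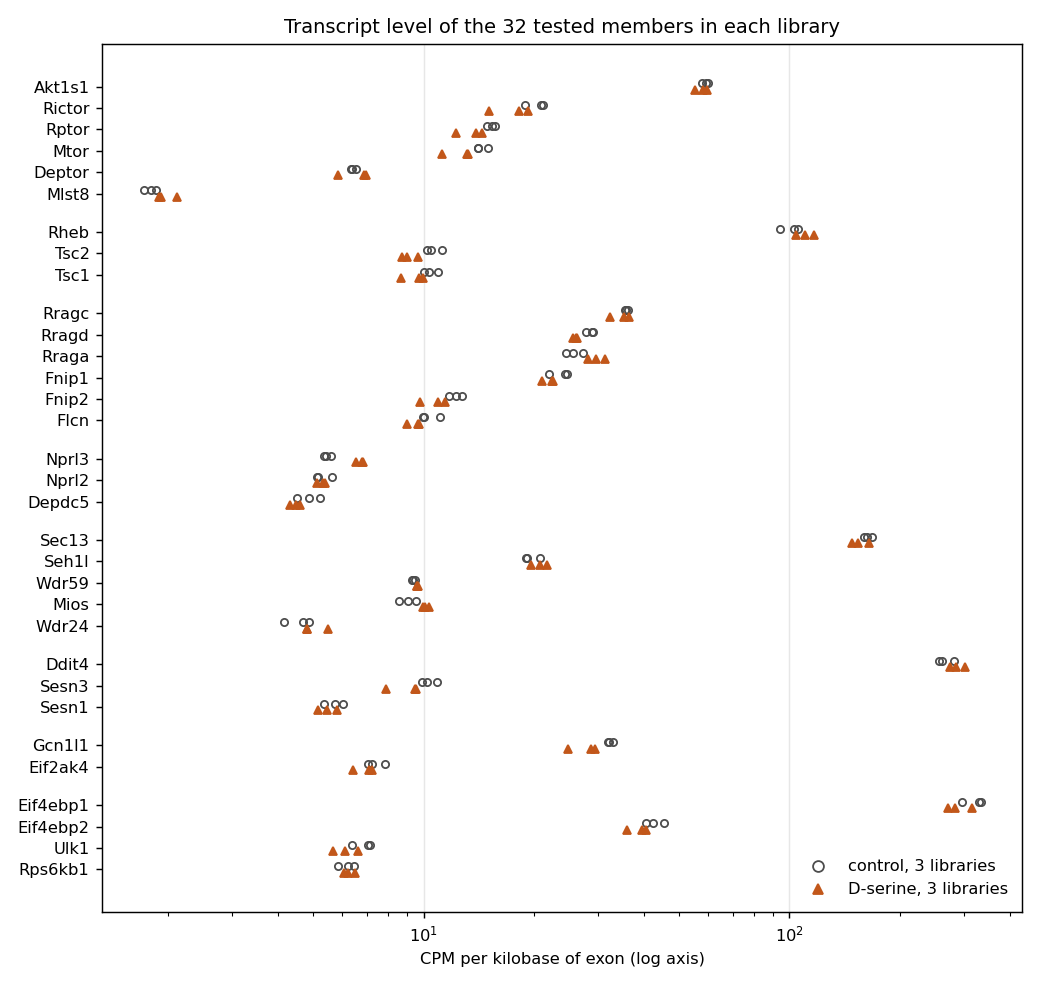
CPM per kilobase of exon (log axis) of the 32 tested members in each library, with control as open circles and D-serine as triangles, by role. Eif4ebp1, Ddit4, Sec13 and Rheb are on the right and Mlst8, at 1.79 CPM per kb in control, is on the left.

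Promoter sequences of GRCm38.p6, from RefSeq, were available for 29 of the 33 members, in 31 windows of 300 bases around the start site. The windows of Nprl3, Tsc2 and Gcn1l1 do not adjoin the deposited coordinates given above, so positions from these sources should not be combined. No promoter was found in the table for Deptor, Wdr24, Seh1l and Eif4ebp1. The E-box CACGTG was searched as a motif of the TFEB family of lysosomal transcription factors, to which it is not particular. It was found in 3 windows (9.68%), those of Rheb, Rragc and Fnip1, against 7.15% of all 32851 windows. The longer form TCACGTGA and the C/EBP-ATF element TGATGNAA, searched on both strands, were in no member window (0.974% and 3.97% of all windows). The FoxO element GTAAACA was in 1, that of Sesn1 (3.65% of all windows). Rheb, Rragc and Fnip1 had log2 fold changes of 0.13, -0.05 and -0.10, none with an adjusted p under 0.05. The 30 bases around each E-box, with the motif in capitals, read 5′ to 3′ on the strand of the gene (Rheb chr5:24842440-24842469, Rragc chr4:123917309-123917338, Fnip1 chr11:54438092-54438121) as follows.
Rheb: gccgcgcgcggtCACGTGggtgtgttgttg
Rragc: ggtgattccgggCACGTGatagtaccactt
Fnip1: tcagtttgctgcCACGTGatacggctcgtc
The 250 bases before the start sites of the 3 members that changed (Nprl3 chr11:32267708-32267957 minus, Tsc2 chr17:24632628-24632877 minus, Gcn1l1, listed as Gcn1, chr5:115565013-115565262 plus) held none of the 4 motifs and are shown as sequence context.
Nprl3: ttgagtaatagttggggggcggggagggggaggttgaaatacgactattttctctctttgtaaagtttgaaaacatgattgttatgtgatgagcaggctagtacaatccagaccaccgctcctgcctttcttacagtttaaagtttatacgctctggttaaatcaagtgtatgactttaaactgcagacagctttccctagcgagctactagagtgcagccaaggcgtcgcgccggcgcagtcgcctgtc
Tsc2: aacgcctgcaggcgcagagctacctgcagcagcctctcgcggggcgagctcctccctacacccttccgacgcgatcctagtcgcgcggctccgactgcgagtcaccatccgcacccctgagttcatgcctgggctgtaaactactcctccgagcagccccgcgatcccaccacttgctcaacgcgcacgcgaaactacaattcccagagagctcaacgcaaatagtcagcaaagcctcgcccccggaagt
Gcn1l1: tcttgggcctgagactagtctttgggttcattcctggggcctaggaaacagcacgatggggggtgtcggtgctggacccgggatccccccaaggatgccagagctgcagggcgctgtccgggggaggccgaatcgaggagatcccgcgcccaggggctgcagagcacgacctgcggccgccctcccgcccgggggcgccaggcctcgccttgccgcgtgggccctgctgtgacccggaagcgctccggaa
Within 1000 bases, 6 of the 32 tested members (18.8%) had a neighbour transcribed head to head, against 14.7% of all tested genes. Tsc2 was 55 bases from Nthl1, whose log2 fold change was 0.18 (edgeR adjusted p = 0.489).

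Further genes of the pathway were described from 5 lists. The ATF4 target list also holds the members Ddit4 and Eif4ebp1, and Sesn2 is in 2 lists. Shares of called genes are to be read against 4.84% higher and 4.9% lower over all tested genes. In the list of scaffold, partner and substrate genes of mTORC1, 1 of 25 changed, Rhebl1, a close relative of Rheb, which rose with 18.3, 19.0 and 16.1 CPM in control and 23.4, 21.6 and 21.5 CPM with D-serine (log2 fold change 0.32, edgeR adjusted p = 0.0279). Its adjusted p was 0.0807, 0.0654, 0.0999 and 0.0669 without control replicates 1, 2 and 3 and D-serine replicate 3, and 0.0629 with the uncentred length trend removed. The sestrin gene Sesn2 had -0.14 (edgeR adjusted p = 0.0967). It passed in 5 of 19 alternatives, among them the centred length trend removed (-0.15, edgeR adjusted p = 0.0257). In the list of mTORC2 partners and upstream kinases, 1 of 17 changed. Akt1, the kinase that inhibits the TSC complex, fell from 113, 113 and 113 CPM to 95.1, 102 and 97.8 CPM (-0.20, edgeR adjusted p = 0.0167). The call was lost in the same 4 omissions, with adjusted p of 0.0687, 0.0835, 0.0559 and 0.0665. Irs1 and Pdpk1, which act upstream of Akt, had -0.21 (0.0538) and -0.16 (0.0578). Without D-serine replicate 1 Irs1 had -0.14 (edgeR adjusted p = 0.0744). With the centred length trend removed Irs1 and Pdpk1 had -0.09 (0.192) and -0.06 (0.238). In the list of the ULK1 complex and TFEB family 0 of 12 changed by edgeR, DESeq2 or limma-voom, and 1, Mitf, had an unadjusted p under 0.05 (-0.23, edgeR adjusted p = 0.167). Map1lc3b and Atg101 had 0.09 (0.212) and -0.12 (0.244). With the length trend removed 1 of the 12 passed, Atg101, at -0.20 (adjusted p = 0.0301) with the centred form.

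Of 20 tested genes of the GCN2 arm and eIF2 machinery, 1 fell and 1 rose. Eif2b2, a subunit of the exchange factor of eIF2, fell from 161, 169 and 174 CPM to 153, 144 and 144 CPM (-0.19, edgeR adjusted p = 0.0246). Eif2s2, the beta subunit of eIF2, rose from 275.1, 274.6 and 275.9 CPM to 305, 303 and 300.3 CPM (0.14, edgeR adjusted p = 0.0406). Both calls were lost with any control library or D-serine replicate 3 left out (adjusted p from 0.0600 to 0.108 for Eif2b2 and from 0.103 to 0.154 for Eif2s2). Eif2s2 was also lost without D-serine replicate 2 (0.0622) and with the uncentred length trend removed (0.0533), and Eif2b2 under upper quartile scaling (0.0501). Atf4 was at 1024, 1044 and 1057 CPM in control and 1272, 1104 and 1130 CPM with D-serine, without overlap (0.17, edgeR adjusted p = 0.0527). Without D-serine replicate 1 its log2 fold change was 0.10 (edgeR adjusted p = 0.0329). With the length trend removed the value for Atf4 was 0.12 (0.0179) in the centred form and 0.09 (0.116) in the uncentred one. Atf4 passed in 9 of 19 alternatives. Of 20 tested ATF4 targets of the amino acid response, 6 fell (30%, against 4.9% of all tested genes) and none rose. Among them were the amino acid carriers Slc38a2, Slc3a2 and Slc7a1, with log2 fold changes of -0.33 (edgeR adjusted p = 0.00145), -0.25 (0.00600) and -0.30 (0.0127). The list was written with results of these data known, so this count is not independent evidence of its direction. The 6 became 2, 1, 4 and 4 without control replicates 1, 2 and 3 and D-serine replicate 3, and 11 when D-serine replicate 1 was left out. Median log2 fold changes of the 5 lists in the order given were 0.04, -0.08, -0.03, 0.04 and -0.11, against 0.01 over all genes. Without D-serine replicate 1 the first 3 of these medians were 0.0082, -0.0467 and 0.0132.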

How the data were processed

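Poly(A) RNA of 6 Neuro2a libraries (3 control, 3 D-serine) was sequenced from a stranded TruSeq kit, per the labels' protocols. The authors deposited raw counts per gene with the summed exon length. The submitters' processing notes name bcl2fastq, Trim Galore, HISAT2, featureCounts of Subread and DESeq2, and the builds GRCm38 and mm10, without versions, roles or strand setting. Of 23322 genes matched by symbol, 511 (2.19%) shared an exon boundary with GENCODE M21, an annotation of GRCm38. The deposited coordinates therefore largely do not match the build that the notes name, and they are given as deposited.

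Counts were tested with edgeR 4.0.16 in R 4.3.3 (filterByExpr, TMM, quasi-likelihood F test, no covariate, Benjamini-Hochberg over 13366 genes, two-sided, threshold 0.05). SE is the size of the log2 fold change divided by the square root of F, and confidence intervals cover 95%. CPM is TMM-scaled. The test was also run on data simulated with a common dispersion for all genes. The simulation held no length trend and no deviating library, so it does not cover these features of the data. Alternatives used DESeq2 1.42.0, limma 3.58.1, other scalings and filters, a replicate block, a length trend (natural spline with 5 degrees of freedom) and leaving out each library. The members, the lists and the tests were chosen with earlier results of these data known. All 6 values are given for members past the threshold and for the 4 with the smallest p; others are given by role, with the extremes of each role, and the 3 smallest p of each list. Not every gene that this rule picks is reported here. The 8 genes plotted by library, other members given with all values, the 5000-base class and the 1000-base head-to-head limit were chosen after values were seen.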

Additional observations from a re-analysis of the deposited data

How the results depend on the processing

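The count of members called was 3 of 32 tested, against 9.74% of all genes. It was 9 with DESeq2 (12.3% of all genes) and 8 with no filter on low counts (10.6%). With the replicate block it was 0 (2.23%), and over all genes the block gave 298 against 1302. Deviations of same-numbered libraries were hardly correlated over genes (-0.06, 0.02 and -0.02), which cannot show whether these libraries were handled together. The labels name no batch, so the block is given here only. The length trend was first removed without centring, which also shifts the scaling (median of all genes -0.02). That form gave 2132 genes (16%) and 8 members, 7 of them lower. With the block it gave 1879 genes (14.1%) and 7 members, 6 lower. Centring, chosen after that output and earlier results had been seen, gave 2047 genes (15.3%) and 6 members, 2 higher and 4 lower. With the block the centred form gave the same member counts, against 14.3% of all genes. Tsc2 was called in the uncentred form and not in the centred one. The centred form without D-serine replicate 1, also added after seeing the data, gave 4 members, 2 of them higher, against 13.8% of all genes called. Members higher numbered 2 under DESeq2, upper quartile scaling, library totals, no filter and a mean of at least 50 counts, and 0 with the block; members lower were 7 under DESeq2, 6 with no filter and 0 with the block. Upper quartile scaling and library totals divided the genes called into 914 and 944 higher against 412 and 412 lower, in place of 647 and 655. Leaving out 1 library gave 68 to 1699 genes, 0 to 8 members, 0 to 2 higher and 0 to 6 lower.

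The members' median log2 fold change, -0.0824, was -0.0526 under upper quartile scaling, -0.0532 under library totals, -0.0528 with the centred length trend removed, -0.0536 with the block as well and -0.0485 without D-serine replicate 1 as well. The mTORC1 partners had 0.0428, and 0.0733 and 0.0724 (upper quartile, library totals), 0.0063 (centred), 0.0098 (centred with the block), -0.0214 (uncentred), -0.0179 (uncentred with the block) and -0.0048 (centred, without D-serine replicate 1). The mTORC2 partners had -0.0791, and -0.0497 and -0.0501 under those scalings, and -0.0036, -0.007 and -0.0229 with the centred trend removed alone, with the block and without D-serine replicate 1. The ULK1 list had -0.0279, and 0.0019 and 0.0015 under upper quartile and library totals and 0.0277 with the centred trend without D-serine replicate 1. The GCN2 list had 0.0422, and 0.0718 and 0.0714 under those scalings and 0.02 and 0.0205 with the uncentred trend without and with the block. The ATF4 list had -0.1135, and -0.1603 and -0.16 likewise. Omitting 1 library moved these medians within -0.0875 to -0.0617 (members), 0.0082 to 0.0523, -0.0791 to -0.0467, -0.0314 to 0.0132, 0.0363 to 0.0574 and -0.126 to -0.0903 (the lists in that order). Under upper quartile scaling and library totals the median of all genes moved from 0.0053 to 0.0351 and 0.0345, a shift of like size to that of the members and of each list. With the uncentred trend removed it was -0.0235. The cause of the other shifts was not tested. Genes called in the 5 lists were 1, 1, 0, 2 and 6, and 3, 2, 1, 5 and 14 with the centred trend removed, 2, 4, 1, 2 and 15 with the uncentred one, 1, 3, 0, 5 and 7 with DESeq2, 1, 4, 0, 4 and 8 with no filter, and 0, 0, 0, 0 and 4 with the replicate block.

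Signs reversed for 4 members near 0. Omitting 1 library gave -0.0112 to 0.1121 for Deptor (also -0.0017), -0.0811 to 0.0031 for Rragc, -0.0308 to 0.0375 for Nprl2 and -0.0206 to 0.0541 for Rps6kb1, and Nprl2 was 0.0232 and 0.0227 under upper quartile scaling and library totals. Across the 19 alternatives Nprl3 passed in 15, Gcn1l1 in 14 and Tsc2 in 11. Nprl2 and Mlst8, at under 10 CPM, had the widest intervals of the members.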
